A study of Mus musculus with 12 samples.

Results

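Iron supply and storage in mammalian cells is controlled at the level of single mRNAs. Iron regulatory proteins bind a hairpin, the iron-responsive element (IRE), when the cell is short of iron. An IRE near the cap of an mRNA, as in the ferritin and ferroportin messages, then blocks the start of translation and leaves the message off polysomes, whereas IREs behind the coding region, as in the transferrin receptor message, protect the mRNA from decay. Ferritin mRNAs are therefore textbook examples of messages that move between untranslated particles and polysomes.

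In all, 9 genes of this system were examined in 3T3-L1 cells, out of 32301 gene names on the array, and all probes whose transcript accession belongs to one of them were taken, 14 of 41174. They encode the ferritin subunits Fth1 and Ftl1, the ferritin-like protein Fthl17e, the iron importers Tfrc (transferrin receptor) and Slc11a2 (DMT1), the iron exporter Slc40a1 (ferroportin), the iron regulatory proteins Aco1 (IRP1) and Ireb2 (IRP2), and Hmox1, the heme oxygenase that releases iron from heme. Aco1, Ireb2 and Hmox1 belong to the system but are not known for an IRE in their own mRNA, and of Slc11a2 only some transcript forms carry one. Fthl17e was included because its M-value in these data was low. Its values are therefore given as a description with no test, and the counts below cover the other 13 probes of 8 genes.

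3T3-L1 is a mouse fibroblast line of preadipocytes that can be turned into adipocytes by hormones, and all samples come from this 1 line. Confluent cells were lysed before induction (0 h), in medium with 10% newborn bovine serum, or 6 h after a change to medium with 10% fetal bovine serum, 0.5 mM isobutylmethylxanthine (IBMX), 1 µM dexamethasone and 5 µg/ml insulin. Serum and hormones changed together and cannot be told apart. Lysates were run on sucrose gradients, and fractions 5 to 7 were pooled as non-polysomal (np) and fractions 9 to 11 as polysomal (p) RNA, which gave 4 groups (np 0 h, p 0 h, np 6 h, p 6 h) of 3 replicates, 1 array each. Values are log2 background-subtracted signals scaled by spike-in RNAs that were added per amount of RNA, so a level is relative to the RNA of its pool, and fewer cells with a message and less message per cell cannot be told apart. Because probes differ in brightness, levels were compared between groups of 1 probe and never between genes.

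The arrays were of similar quality. Between 55.7% and 60.8% of the probes of an array were well above background, and the arrays of a group correlated at 0.985 to 0.992. No spot of these probes was saturated, while spots of controls and spike-in RNAs were not counted. Induction was visible in Cebpb, an early regulator of adipogenesis, which rose by 4.35 (log2) in the polysomal pool, and in the glucocorticoid target Fkbp5, which rose by 2.91 to 4.53 in its 3 probes, while Cebpd rose there by 0.97. All 9 fibroblast and preadipocyte markers were well above background on every array, against 3 of 5 adipocyte, 3 of 5 blood and erythroid and 1 of 4 endothelial and epithelial markers. The summed signal of the blood and erythroid markers was 855 to 959 in the polysomal pool at 0 h and 261 to 285 at 6 h, and 563 to 644 and 182 to 196 in the non-polysomal pool. At 0 h most of it came from the receptor gene Epor (9.60 and 6.98 in the polysomal pool at 0 h and 6 h), and the leukocyte marker Ptprc was well above background on at most 1 array in any of its probes. The part of these markers in the results was not tested.

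The first question was where each message lay in the gradient. At 0 h, 11 of the 13 probes differed between the pools by more than 2-fold at an adjusted p below 0.05 (8 higher in the polysomal and 3 higher in the non-polysomal pool), where 37.2% of all probes did so (27.4% and 9.81%). At 6 h it was 12 of 13 (9 and 3), against 43.8% of all probes (37.4% and 6.41%). The shares over all probes include many dim ones, whereas of the 13 only Ireb2 probe C was not well above background on every array. Probes well above background on every array had a median difference of 0.88 at 0 h and 1.32 at 6 h, beside 0.15 and 0.68 over all probes. The part of brightness in these counts was not tested. The 3 probes on the non-polysomal side were at both times those of Fth1, Ftl1 and Slc40a1, the messages known for an IRE near the cap. These 3 lay below 0 at both times under each of 5 scalings between arrays, with differences from -3.64 to -1.07. The polysomal side depended more on the scaling, and 75th percentile scaling left 3 probes called there at 0 h and 2 at 6 h, with the same 3 calls on the non-polysomal side, while Slc11a2 probe C became -0.70 and -0.15 (0.21 and 1.19 as reported).

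Fth1 encodes the heavy ferritin subunit, which oxidises iron for storage. Its log2 signals (NM_010239) were 17.58, 17.72 and 17.56 in the non-polysomal pool at 0 h, 15.66, 15.65 and 15.75 in the polysomal pool at 0 h, 18.04, 18.01 and 18.04 in the non-polysomal pool at 6 h, and 16.92, 16.91 and 17.05 in the polysomal pool at 6 h. The groups did not overlap, and their order was np 6 h, np 0 h, p 6 h, p 0 h. The polysomal signal was 3.82-fold below the non-polysomal one at 0 h (log2 difference -1.93 ± 0.07, SE, n = 3 per group, limma adjusted p = 5.4e-09) and 2.10-fold below at 6 h (-1.07 ± 0.07, limma adjusted p = 2.8e-07). Of the 20368 probes rated well above background on all 12 arrays (called bright probes below), 5.10% had a lower value of this difference at 0 h and 6.97% at 6 h. The signal rose 2.41-fold over 6 h in the polysomal pool (1.27 ± 0.07, limma adjusted p = 2.1e-07) and 1.33-fold in the non-polysomal pool (0.41 ± 0.07, limma adjusted p = 0.0011).

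Ftl1, the light ferritin subunit, had the same order of groups without overlap. Its signals (NM_010240) were 15.35, 15.50 and 15.34 (np 0 h), 13.26, 13.52 and 13.27 (p 0 h), 16.11, 16.13 and 16.16 (np 6 h) and 14.81, 14.82 and 14.92 (p 6 h). The polysomal signal was 4.13-fold below the non-polysomal one at 0 h (-2.05 ± 0.09, limma adjusted p = 1e-08) and 2.43-fold below at 6 h (-1.28 ± 0.09, limma adjusted p = 2.5e-07). It rose 2.83-fold in the polysomal pool (1.50 ± 0.09) and 1.66-fold in the non-polysomal pool (0.73 ± 0.09). As reported here, Fth1 and Ftl1 rose in both pools and by more in the polysomal one. With 75th percentile scaling the polysomal change of Fth1 was 0.80, below the limit of 1 for a call, and with quantile normalization it was -0.0014 (limma adjusted p = 1, range over the settings 1.2e-12 to 1), below the non-polysomal 0.14. Over the 12 arrays, which fall into the 4 groups, the signals of both probes correlated at r = 0.992. Both genes have close copies elsewhere in the mouse genome, and the files do not show what share of the signal such copies give.

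**Figure D1:**
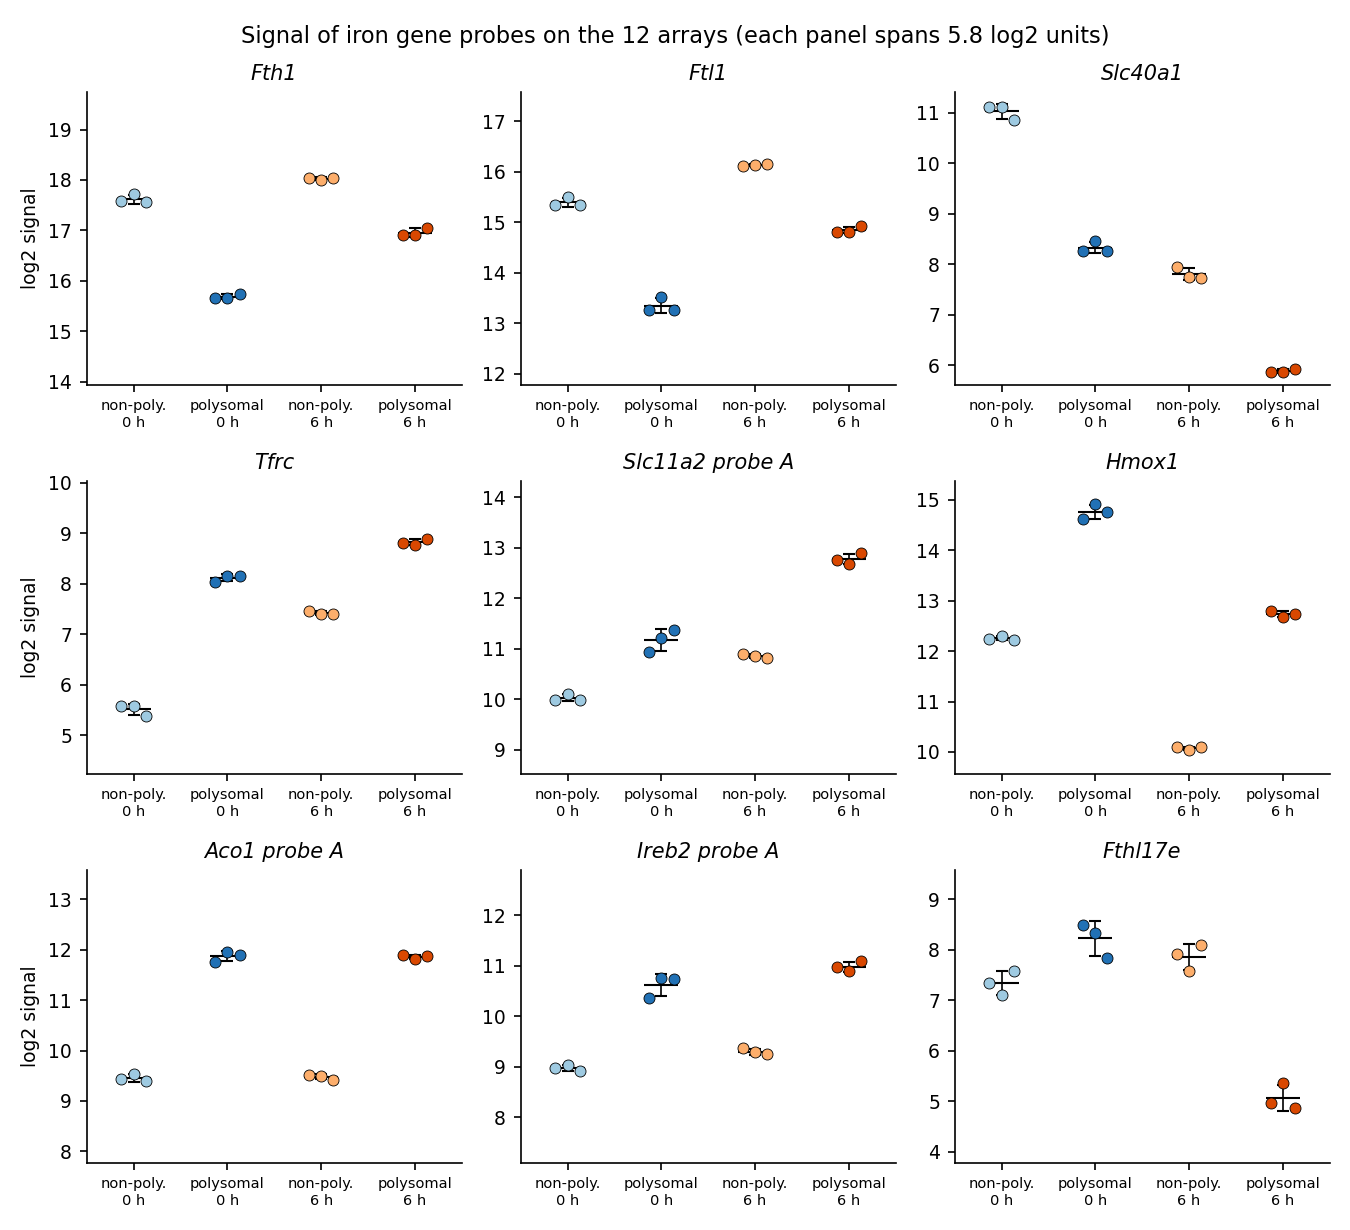
Log2 signal (y axis) of 9 probes on the 12 arrays, by pool and time (x axis). Points are arrays, bars give the mean and the SD of 3 arrays, and each panel spans the same number of log2 units. Fth1, Ftl1 and Slc40a1 were higher in the non-polysomal pool at both times, whereas Tfrc, Hmox1, Aco1 and Ireb2 were higher in the polysomal pool.

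Slc40a1, the only known exporter of iron from mammalian cells, was the third message on the non-polysomal side, and it fell in both pools. Its signals (NM_016917) were 11.11, 11.12 and 10.86 (np 0 h), 8.27, 8.45 and 8.27 (p 0 h), 7.94, 7.74 and 7.72 (np 6 h) and 5.87, 5.86 and 5.93 (p 6 h), so that no groups overlapped and even the polysomal pool at 0 h lay above both pools at 6 h. The fall was 9.37-fold in the non-polysomal pool (-3.23 ± 0.10, limma adjusted p = 9.8e-09) and 5.43-fold in the polysomal pool (-2.44 ± 0.10, limma adjusted p = 2e-08). The polysomal signal was 6.50-fold below the non-polysomal one at 0 h and 3.77-fold below at 6 h (-2.70 and -1.91, each ± 0.10). As reported here, the ferritin signals rose in both pools, although with quantile normalization the change of Fth1 passed the test in neither. The ferroportin signal fell in both pools, while these messages lay on the same side of the gradient. The fall in the polysomal pool was not seen (0.03, limma adjusted p = 0.96) under a background correction by normexp on all spots, and the adjusted p ranged from 4.7e-12 to 0.96 over the settings tried. With normexp on all spots the median polysomal change of all probes was 2.15 (0.54 as reported), so that Slc40a1 still lay below it.

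Tfrc, which takes up transferrin-bound iron, behaved in the other way. The signals of its probe (NM_011638, the mean of 10 spots per array) were 5.57, 5.57 and 5.38 (np 0 h), 8.03, 8.15 and 8.16 (p 0 h), 7.46, 7.39 and 7.39 (np 6 h) and 8.81, 8.77 and 8.88 (p 6 h). No groups overlapped, and the order was p 6 h, p 0 h, np 6 h, np 0 h. The message was 6.09-fold higher in the polysomal pool at 0 h (2.61 ± 0.08, limma adjusted p = 1.8e-09), above 95.2% of the bright probes, but 2.65-fold higher at 6 h (1.41 ± 0.08), above 52.4% of them. With 75th percentile scaling and quantile normalization the difference at 6 h was 0.07 and 0.14, and neither was called, while that at 0 h was 1.70 and 1.96. It rose 3.75-fold in the non-polysomal pool (1.91 ± 0.08, limma adjusted p = 4.4e-08) and 1.63-fold in the polysomal pool (0.71 ± 0.08, limma adjusted p = 2.1e-05).

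Slc11a2 carries ferrous iron across the plasma and endosomal membranes, and was read by 3 probes, lettered by falling brightness. Probe A (NM_008732) gave 9.99, 10.11 and 9.99 (np 0 h), 10.93, 11.22 and 11.37 (p 0 h), 10.90, 10.87 and 10.81 (np 6 h) and 12.77, 12.68 and 12.89 (p 6 h). Its groups did not overlap, although the lowest array of p 0 h (10.93) lay just above the highest of np 6 h (10.90). In the polysomal pool probe A rose 3.05-fold (1.61 ± 0.11, limma adjusted p = 7.7e-07), probe C (NM_008732) 2.09-fold (1.07 ± 0.10, limma adjusted p = 5.9e-06) and probe B (NM_001146161) 1.57-fold (0.65 ± 0.11, limma adjusted p = 0.00067). The polysomal rise of probe B was 0.18 with 75th percentile scaling (limma adjusted p = 0.16) and 0.16 with quantile normalization (0.19). In the non-polysomal pool probe A rose 1.78-fold (0.83 ± 0.11, limma adjusted p = 0.00014), while the changes of probe B (0.17, 95% interval -0.08 to 0.42) and probe C (0.09, -0.13 to 0.31) did not pass the test. The probes also differed in the gradient at 0 h, where A and B were 2.21-fold and 2.60-fold higher in the polysomal pool and C was not called (0.21, 95% interval -0.0025 to 0.43). Which transcript forms of Slc11a2, with or without an IRE, each probe reads is not given in the files.

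The iron regulatory proteins bind the IREs. Aco1 probe A gave 9.43, 9.54 and 9.40 (np 0 h), 11.76, 11.96 and 11.89 (p 0 h), 9.52, 9.49 and 9.42 (np 6 h) and 11.89, 11.81 and 11.87 (p 6 h), and the times overlapped in each pool. Its change over 6 h was -0.01 (95% interval -0.18 to 0.16) in the polysomal and 0.02 (-0.15 to 0.19) in the non-polysomal pool. The polysomal value depended on the scaling. It was -0.49 with 75th percentile scaling (limma adjusted p = 1.1e-05), -0.77 with quantile normalization (1.6e-07) and 0.27 with a line fitted through the spike-ins (0.0035), and the range over the settings was 1.6e-07 to 0.90. The message was 5.32-fold higher in the polysomal pool at 0 h and 5.20-fold higher at 6 h (2.41 and 2.38, each ± 0.08). Aco1 probe B was dim, between 3.20 and 5.93, and rose by 0.76 ± 0.25 in the polysomal pool (limma adjusted p = 0.022).

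Of Ireb2, probe A gave 8.96, 9.04 and 8.91 (np 0 h), 10.36, 10.76 and 10.74 (p 0 h), 9.36, 9.29 and 9.25 (np 6 h) and 10.97, 10.89 and 11.09 (p 6 h). Both pools were higher at 6 h without overlap, by 1.29-fold in the polysomal (0.36 ± 0.11, limma adjusted p = 0.016) and 1.26-fold in the non-polysomal pool (0.33 ± 0.11, limma adjusted p = 0.037). These small rises depended on the scaling between arrays, and the polysomal one became -0.11 under 75th percentile scaling and -0.26 under quantile normalization. The message was 3.14-fold and 3.21-fold higher in the polysomal pool at 0 h and 6 h. Probe B, at 3.75 to 6.34, was also higher in the polysomal pool (1.49 at 0 h and 2.23 at 6 h), and probe C was well above background on 8 of 12 arrays.

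Hmox1 also fell in both pools but lay on the polysomal side of the gradient. Its signals were 12.24, 12.31 and 12.23 (np 0 h), 14.62, 14.90 and 14.75 (p 0 h), 10.10, 10.03 and 10.09 (np 6 h) and 12.79, 12.68 and 12.73 (p 6 h). No groups overlapped, and the order was p 0 h, p 6 h, np 0 h, np 6 h. The message fell 4.08-fold in the polysomal pool (-2.03 ± 0.08, limma adjusted p = 1.9e-08) and 4.55-fold in the non-polysomal pool (-2.18 ± 0.08, limma adjusted p = 2.7e-08). It was 5.66-fold higher in the polysomal pool at 0 h and 6.31-fold higher at 6 h, above 93.6% and 86.2% of the bright probes.

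**Figure D2:**
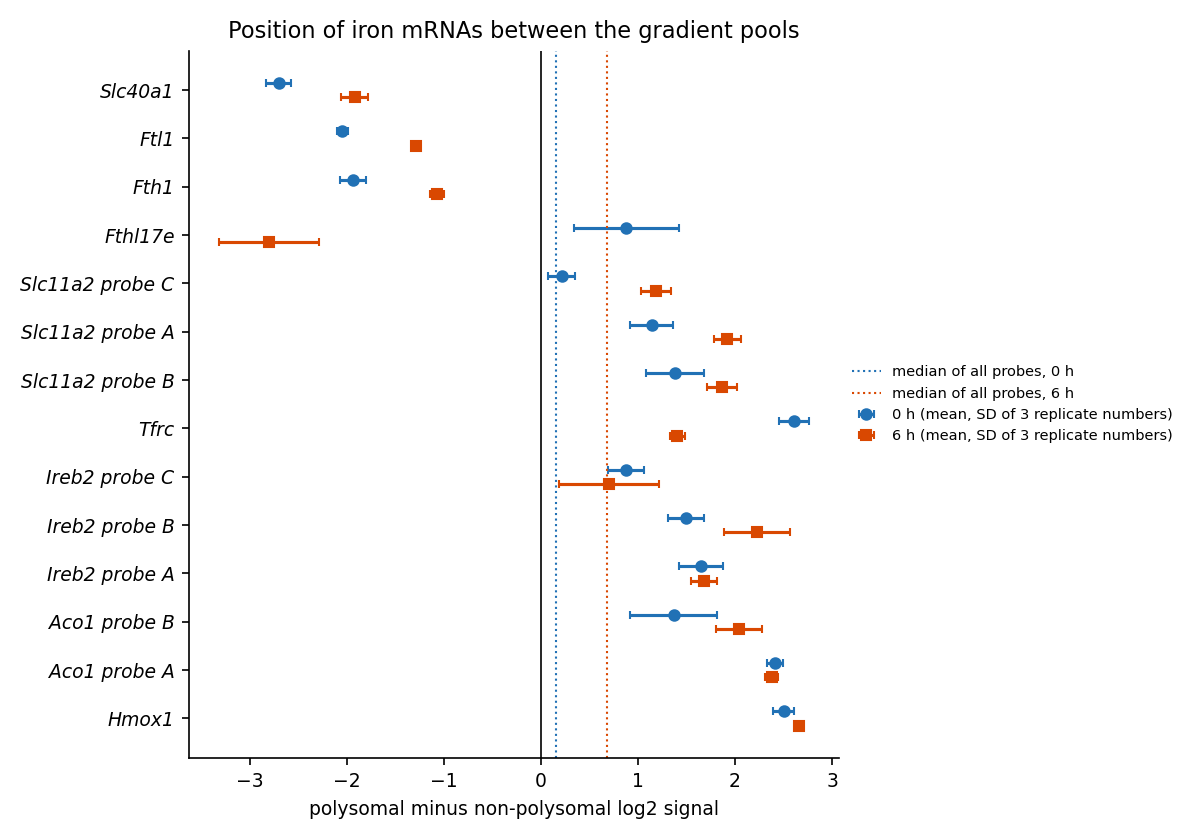
Polysomal minus non-polysomal log2 signal (x axis) of the 14 probes (y axis) at 0 h and 6 h. Points are means and bars the SD over the 3 replicate numbers, and dotted lines mark the median of all probes (0.15 at 0 h and 0.68 at 6 h). Only Slc40a1, Ftl1 and Fth1 lay left of 0 at both times.

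Over the 13 probes, 6 were called over 6 h in the polysomal pool, where 24.2% of all probes were (19.2% up and 5.01% down). The 4 that rose were Fth1, Ftl1 and the Slc11a2 probes A and C, and the 2 that fell were Slc40a1 and Hmox1. In the non-polysomal pool 3 probes were called, against 16.2% of all probes (8.09% up and 8.14% down), with Tfrc up and Slc40a1 and Hmox1 down. The median change of the 13 probes was 0.65 in the polysomal and 0.17 in the non-polysomal pool, beside 0.54 and 0.04 over all probes. In the polysomal pool 0 probes rose and 2 fell with quantile normalization, and 9 rose and 2 fell with a line fitted through the spike-ins.

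**Figure D3:**
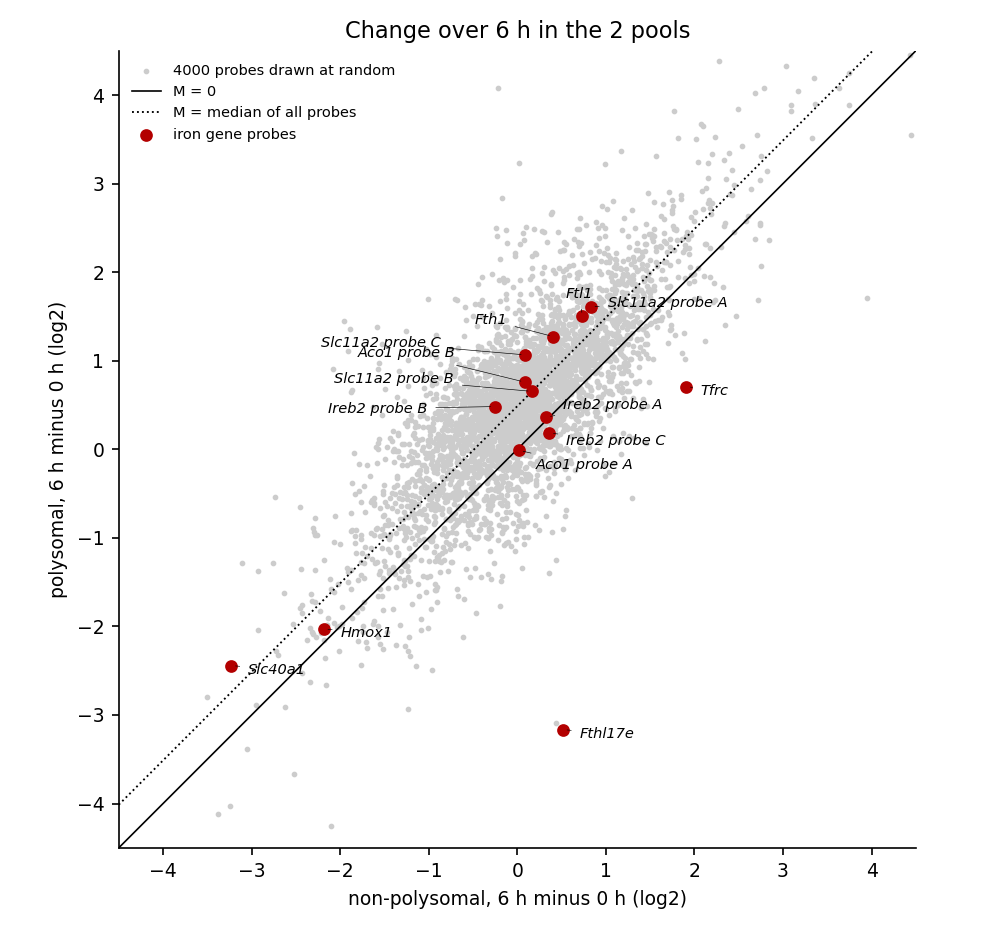
Change over 6 h in the non-polysomal (x axis) and polysomal (y axis) pool, log2, for the 14 probes in red and a random draw of all probes in grey, a few of which lie beyond the axes. On the solid line both pools changed equally (M = 0), and the dotted line marks the median M-value of all probes (0.49). Tfrc and Fthl17e lay well below the solid line, and Ireb2 probe C (M-value -0.18) and Aco1 probe A (-0.03) just below it. Slc40a1 and Hmox1 lay at the lower end of the line.

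The second question was whether a message shifted between the pools. The study's M-value, (p 6 h - np 6 h) - (p 0 h - np 0 h), is positive where the scaled polysomal signal rose more, or fell less, than the non-polysomal one. Because levels are relative to the RNA of each pool, it does not measure the share of a message on polysomes. It is made of the same 12 arrays as the differences above and is no independent measurement. Of the 13 probes, 1 was called at an absolute M-value above 1, Tfrc, where 13.4% of all probes were called (12.1% up and 1.31% down). The median of all probes was 0.49, and an M-value is therefore also given relative to that median. This median was set by the scaling: the spike-in offsets alone add 0.50 to every M-value, and it was 0.06 with 75th percentile scaling, -0.00075 with quantile normalization and 1.41 with a line fitted through the spike-ins.

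The M-value of Tfrc was -1.20 ± 0.11 (limma adjusted p = 3.4e-05), and -1.69 relative to the median. The replicate numbers gave -1.12, -1.20 and -1.28, and 0.708% of the bright probes had a lower value. The Tfrc message thus gained more in the non-polysomal than in the polysomal pool. It was negative with an adjusted p below 0.05 under each of 5 scalings between arrays, but its size fell short of 1 with a line through the spike-ins (-0.58), with the authors' log2 values (-0.70, where Slc40a1 at 1.23 was the single call) and with normexp without spots of non-uniform background (-0.51). With normexp on all spots it was 1.11 (limma adjusted p = 0.33, range over the settings 4.8e-07 to 0.33). The median M-value of all probes in that setting was 3.20, so that Tfrc lay below it there too.

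The M-values of the ferritins and Slc40a1 were positive. Fth1 had an M-value of 0.86 ± 0.10 (limma adjusted p = 0.00017), Ftl1 of 0.76 ± 0.12 (limma adjusted p = 0.00093) and Slc40a1 of 0.79 ± 0.14 (limma adjusted p = 0.0017), each positive in 3 of 3 replicate numbers. These are 0.38, 0.28 and 0.30 above the median of all probes, and 74.8%, 68.9% and 70.4% of the bright probes had lower values, and all 3 lay between the 25th and 75th percentile of all probes (0.14 and 0.88). Quantile normalization turned the M-value of Fth1 to -0.14 (limma adjusted p = 0.34, range over the settings 1.2e-06 to 0.34) and lowered that of Ftl1 to 0.17 (0.21, range 7.8e-06 to 0.21). The 5 dimmer of the 10 spike-in RNAs (7.82 to 16.80) had M-values of -1.04 to -0.89 before scaling and the 5 brighter ones (18.30 to 19.06) of -0.26 to 0.04, while the offset is 1 value per array from all of them. The signals of Ftl1 lie within the dim range and those of Fth1 reach from it into the gap between both. With a line fitted through the spike-ins in place of the offset, the M-values were 0.77 for Fth1 and 0.86 for Ftl1.

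Among the others, the Slc11a2 probes had positive M-values of 0.78 ± 0.16 (A, limma adjusted p = 0.0035), 0.49 ± 0.16 (B, 0.039) and 0.98 ± 0.14 (C, 0.00043). Probe B was 0.06 with 75th percentile scaling (limma adjusted p = 0.83) and 0.02 with quantile normalization (0.92). That of Ireb2 probe B was 0.74 ± 0.21 (limma adjusted p = 0.020). Relative to the median of all probes the Slc11a2 probes A, B and C were 0.29, -0.0016 and 0.49, and Ireb2 probe B was 0.25. As reported here, no call at any size was made for Hmox1 (0.16, 95% interval -0.10 to 0.41), Aco1 probe A (-0.03, -0.27 to 0.20), Aco1 probe B (0.67, -0.11 to 1.45), Ireb2 probe A (0.03, -0.32 to 0.38) and Ireb2 probe C (-0.18, -0.82 to 0.47). Aco1 probe A was -0.46 with 75th percentile scaling (limma adjusted p = 6e-04) and -0.69 with quantile normalization (2.4e-05, range over the settings 2.4e-05 to 0.83). Hmox1 was -0.27 (limma adjusted p = 0.026) and -0.98 (1e-05, range over the settings 1e-05 to 0.90) under the same scalings, and Ireb2 probe A was -0.39 (0.012) and -0.51 (0.0017, range 0.0017 to 1). At an adjusted p below 0.05 with no limit on size, 8 of the 13 probes passed, 7 up and 1 down, against 36.1% of all probes (32.1% up and 3.98% down).

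**Figure D4:**
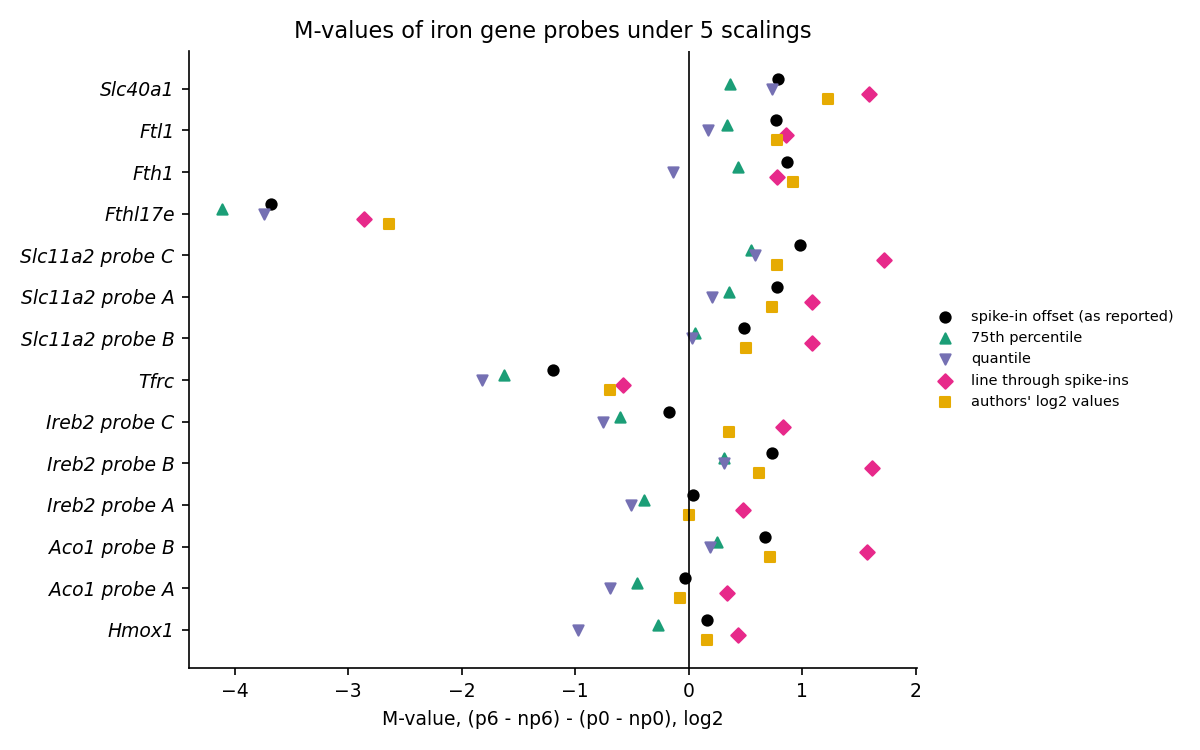
M-value (x axis) of the 14 probes (y axis) under 5 scalings between arrays, 1 marker each. Tfrc and Fthl17e were negative under all 5, Ftl1, Slc40a1 and the Slc11a2 probes were positive under all 5, and Fth1 was -0.14 under quantile normalization. Slc11a2 probe B was near 0 with 75th percentile scaling (0.06) and quantile normalization (0.02).

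Fthl17e, a ferritin-like gene without introns, was chosen by the M-value. Its signals (NM_031261) were 7.34, 7.11 and 7.58 (np 0 h), 8.50, 8.33 and 7.84 (p 0 h), 7.91, 7.58 and 8.09 (np 6 h) and 4.96, 5.36 and 4.86 (p 6 h). The polysomal pool at 6 h stood apart from the other groups, of which p 0 h and np 6 h overlapped. The M-values by replicate number were -4.10, -3.45 and -3.49, with a mean of -3.68, and the mean was -2.64 with the authors' log2 values, -2.86 with a line fitted through the spike-ins, -2.09 with normexp without spots of non-uniform background and 0.13 with normexp on all spots. In the last of these settings the median M-value of all probes was 3.20. As reported here, of the bright probes 0% were lower, but Fthl17e was chosen by this value, so its rank is no support for a shift. The polysomal signal was 8.97-fold lower at 6 h than at 0 h, and the non-polysomal one 1.43-fold higher, and both ferritins were higher at 6 h in both pools.

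The genes most like Fth1 over the 12 arrays, among 16584 probes, were Mrpl42, a protein of the mitochondrial ribosome (r = 0.9975), Sh3bgrl3 (0.9964), 2310039H08Rik (0.9961), Josd2 (0.996) and the noncoding RNA Snhg17 (0.9956). All 5 were higher in the non-polysomal pool at both times, by -3.33 to -1.29 at 0 h and -2.25 to -0.72 at 6 h. Those most like Tfrc included the capping enzyme Rngtt (0.9966), Sema5a (0.9965), the splicing factor Mbnl2 (0.9962) and Zhx1 (0.996). Their M-values lay between -1.32 and -0.62. The arrays fall into 4 groups, so that such correlations describe 4 levels more than 12 points. These genes were picked by likeness over the same arrays. Their side of the gradient and the sign of their M-values largely follow from that choice.

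Other genes of iron and heme handling were read from 7 lists with 101 genes, of which 94 were on the array with 143 probes. By the M-value 21 probes rose (14.7%) and 3 fell (2.10%), beside 12.1% and 1.31% of all probes, and the median was 0.50 (all probes 0.49). The split depended on the scaling, with 5 up and 4 down at the 75th percentile, 1 and 4 with quantile normalization and 73 and 0 with a line through the spike-ins. In the polysomal pool 51 probes rose (35.7%) and 2 fell (1.40%) over 6 h, beside 19.2% and 5.01% of all probes. Calls by the M-value stood at 9 up of 39 probes for iron-sulfur cluster assembly, 5 up and 2 down of 24 for iron sensing and ferritin handling, 3 up of 20 for heme breakdown and targets of the stress factor NRF2, 1 up of 10 for heme synthesis, 1 up of 35 for uptake and transport, 2 up of 3 for ferritin-like genes and 1 down of 12 for other messages with an IRE.

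Pcbp2 and Pcbp1, chaperones that hand iron to ferritin, had M-values of 1.62 ± 0.13 (0.93 to 1.62 over 3 probes) and 1.49 ± 0.17 (1.44 and 1.49 over 2 probes), and their polysomal signals rose by 1.32 and 1.34. Cul1, a scaffold of the ubiquitin ligase that removes Ireb2, and Herc2, a ligase that acts on the ferritin receptor Ncoa4, had M-values of -1.22 ± 0.13 and -1.22 ± 0.15 in 1 of their 3 and 2 probes. These probes rose in the non-polysomal pool, by 1.16 and 1.77. The other probes had positive M-values, of 0.53 and 0.51 for Cul1 (limma adjusted p = 0.0042 and 0.0068) and 0.69 for Herc2 (0.17), so that the probes of each gene disagreed in sign. Mitochondrial ferritin Ftmt, a dim gene, had an M-value of 1.00 ± 0.25 in 1 of its 2 probes and -0.11 ± 0.34 in the other.

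Blvrb, which reduces biliverdin after heme breakdown, had an M-value of 1.69 ± 0.15. Srxn1, a sulfiredoxin and known NRF2 target, rose by 4.33 in the polysomal and 3.03 in the non-polysomal pool (M-value 1.30 ± 0.11, 0.97 to 1.30 over 3 probes). Hmox1, a gene of the same stress pathway, fell. Of the 20 probes in the list of heme breakdown and NRF2 targets, 8 were called up and 1 down over 6 h in the polysomal pool. Over all probes 19.2% were called up and 5.01% down there. Lcn2, a secreted protein that binds iron-loaded siderophores, rose by 4.32 and 3.10 (M-value 1.22 ± 0.21). Ppox of heme synthesis had an M-value of 1.23 ± 0.12, and the iron-sulfur genes Nubp1, Fdx1, Mms19 and Ciapin1 had M-values of 1.42, 1.35, 1.18 and 1.13 in their probes with the largest value among bright ones, while 1 of the 3 Mms19 probes was not called (0.27).

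**Figure D5:**
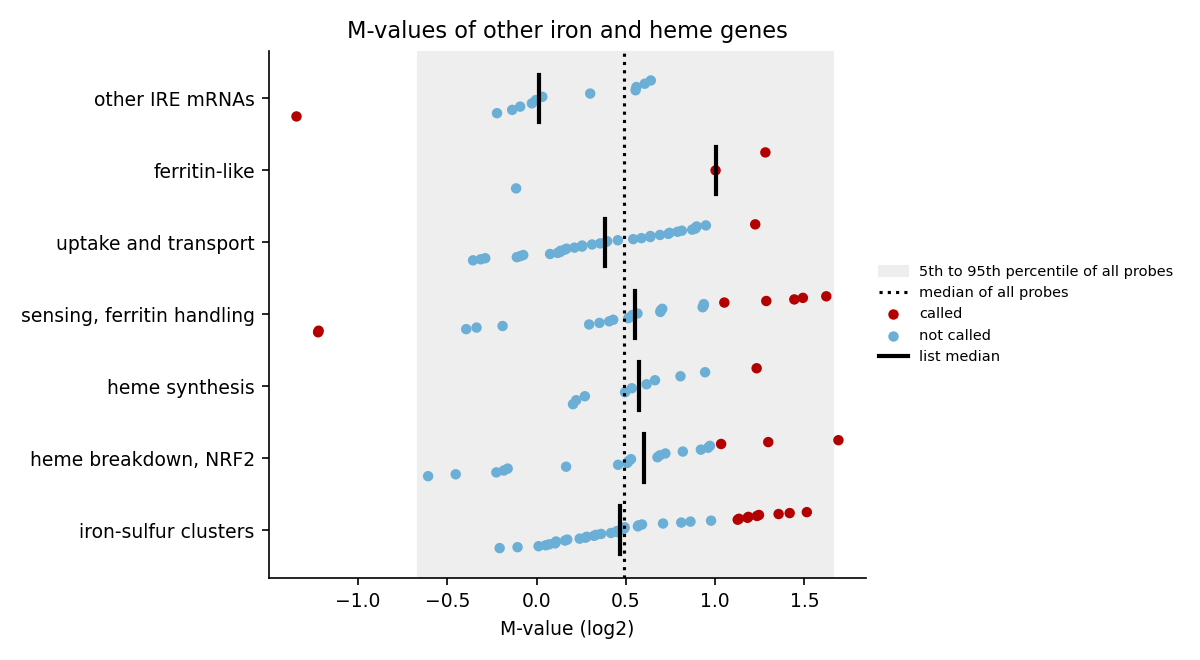
M-values (x axis) of the probes of 7 lists of iron and heme genes (y axis). Each point is a probe, red where called, black lines are list medians, the dotted line is the median of all probes and the grey band their 5th to 95th percentile. The list medians lay between 0.01 for other messages with an IRE and 1.00 for the 3 ferritin-like probes.

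Among the other messages known or proposed to carry an IRE, the 1 probe called by the M-value read Epas1 (HIF-2 alpha), which is named here after its values were seen. That probe (-1.35 ± 0.41, limma adjusted p = 0.029) was well above background on 4 of 12 arrays, and the bright Epas1 probe had an M-value of -0.09 ± 0.14. By the bright probe the message, known for an IRE near the cap, was on the non-polysomal side at both times (-1.98 and -2.07), as were the ferritins and Slc40a1, and it rose by 2.51 in the polysomal and 2.61 in the non-polysomal pool. App was on the polysomal side at both times (3.69 at 0 h and 3.99 at 6 h).

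The letters of the IRE loop were looked for in the RefSeq promoter windows (GRCm38.p6, 250 bases before to 50 after the annotated start), which cover 6 of the 9 genes with 8 windows. CAGTGN was in none of the 8 within the 50 bases after the start on the sense strand, where 7.08% of all 32851 windows have it, and on either strand of the whole window in 3 of 8 (55.8% of all). The antioxidant response element TGACNNNGC was in 0 of 8 on either strand (12.4% of all). No window was given for Slc11a2, Slc40a1 and Hmox1, and the IRE itself may lie farther from the annotated start, so that nothing follows for its presence.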

How the data were processed

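RNA of 4 groups (pool and time, grouped as the sample labels give them) was measured on 12 one-color Agilent arrays with 3 biological replicates per group, per the study's methods. The deposited scanner files, made with Feature Extraction 10.7.1.1, give spot intensities from which the software subtracted the background, with no normalization between arrays. The authors also deposited a table of log2 values. It matched the log2 median pixel intensity, averaged per probe and shifted by 1 constant on each array, and served as an alternative. The number of arrays limits the precision, and the 75th percentile of intensity lay between 241 and 567.

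Spots marked as outliers were left out, log2 intensities were averaged over the spots of a probe, and each array was shifted by the mean of its 10 spike-in RNAs. Probes were named by matching transcript accessions to RefSeq (26690 of 41174 probes). Differences were tested over all probes with limma 3.58.1 in R 4.3.3 (lmFit, eBayes, Benjamini-Hochberg adjustment), and 19 probes had no M-value. A call needed an adjusted p below 0.05 and an absolute log2 difference above 1. The steps were tested on simulated data.

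The genes, the lists and the tests were chosen with earlier results of these data known. The text names every probe of the 9 genes, up to 4 genes per list with the largest absolute M-value among called probes well above background on every array, the 5 genes most correlated with Fth1 and with Tfrc, and Cebpb, Cebpd and Fkbp5. Some items that this rule or the lists cover are not reported here. Each slide held 1 array of every group, under the same replicate number. Deviations from the group means of arrays with the same number correlated at -0.05 to 0.15, so the numbers were not taken as pairs. Alternatives were other scalings, normexp, the authors' values, no dim probes, outlier spots kept, the replicate block, and leaving out arrays.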

Additional observations from a re-analysis of the deposited data

Results flagged for a closer look

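The change over 6 h differed between the polysomal and the non-polysomal pool, by the test of the M-value at an adjusted p below 0.05, in 8 of the 13 tested probes. The difference was -1.20 for Tfrc, 0.86 for Fth1, 0.76 for Ftl1 and 0.79 for Slc40a1. It was 0.78, 0.49 and 0.98 for the Slc11a2 probes A, B and C, and 0.74 for Ireb2 probe B. The test is against 0, while the median M-value of all probes was 0.49. Relative to that median Tfrc was -1.69, Fth1 0.38, Ftl1 0.28 and Slc40a1 0.30. The Slc11a2 probes A, B and C were 0.29, -0.0016 and 0.49 relative to it, and Ireb2 probe B was 0.25. Over all probes 36.1% passed the limit of an adjusted p below 0.05.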

How the results depend on the processing

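Scaling moved many of the calls, while those over 6 h in the non-polysomal pool stayed at 3 under each of 5 scalings. With 75th percentile scaling the calls among the iron gene probes fell to 6 at 0 h and 5 at 6 h between the pools (11 and 12 as reported), those by the M-value in the other lists to 9 (24 as reported), and the M-values of Ireb2 probe A and Hmox1 became -0.39 and -0.27 and the polysomal change of Ireb2 probe A -0.11. With quantile normalization there were 2 calls over 6 h in the polysomal pool (6 as reported), 6 between the pools at 6 h and 5 in the other lists. The M-values then were -0.14 for Fth1, -0.51 for Ireb2 probe A and -0.98 for Hmox1, and the polysomal changes -0.0014 for Fth1 and -0.26 for Ireb2 probe A. A straight line through the spike-ins gave 6 M-value calls (1 as reported), 11 calls over 6 h in the polysomal pool and 73 in the other lists, with M-values of 0.34 for Aco1 probe A and 0.83 for Ireb2 probe C and a polysomal change of 0.27 for Aco1 probe A. The median M-value of all probes was 0.06, -0.00075 and 1.41 under these 3 scalings (0.49 as reported). The authors' log2 values gave an M-value of 0.36 for Ireb2 probe C and left Tfrc at -0.70, with Slc40a1 (1.23) as the 1 call.

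Normexp was planned on the mean signal, was not run on it, and was run on the median pixel, as chosen after seeing the files. On all spots it left 0 M-value calls (1 as reported), 6 and 7 calls between the pools at 0 h and 6 h and 0 in the other lists, with M-values of 0.13 for Fthl17e and 1.11 for Tfrc, non-polysomal changes of -0.27 for Fthl17e and -0.0174 for Ireb2 probe A, and a polysomal change of 0.0335 for Slc40a1. The median M-value of all probes was then 3.20, and their median polysomal change was 2.15. Without the spots of non-uniform background, normexp gave 15 calls in the other lists and an M-value of 0.38 for Ireb2 probe C. The causes were not tested.

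With the replicate block the M-value calls stayed at 1 among the 13 probes, 6 and 3 were called over 6 h in the polysomal and non-polysomal pool, and 5025 probes were called up and 535 down over the array (4981 and 541 as reported). Leaving out 1 array, or all arrays of a replicate number, gave 1 to 3 M-value calls, 5 to 6 and 3 to 3 calls over 6 h in the polysomal and non-polysomal pool, 11 to 12 and 12 to 12 between the pools at 0 h and 6 h, and 20 to 27 in the other lists. The M-value calls became 2 without np 0 h replicate 3, p 0 h replicate 1, np 6 h replicate 1 or p 6 h replicate 1, as Slc11a2 probe C then passed 1 (1.03, 1.06, 1.03 and 1.005), and 3 without all arrays numbered 1 (Slc11a2 probe C 1.13, Ireb2 probe B 1.01). The polysomal change of Slc11a2 probe C fell below 1 without p 0 h replicate 3 (0.996) or all arrays numbered 3 (0.99). Over these 15 settings the M-value of Slc11a2 probe B had an adjusted p below 0.05 in 4 (0.25, adjusted p = 0.28, without the arrays numbered 1), that of probe A in 14 (0.054 without those numbered 2) and that of Ireb2 probe B in 13 (0.15 and 0.16 without those numbered 2 or 3). Signal over background limits Aco1 probe B and Ireb2 probes B and C most.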
